A study of Sisymbrium orientale with 12 samples.

Results

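Leaves turn nitrate from the soil into amino acids through a short chain of proteins, and asparagine stores and carries part of the nitrogen that results. Described here are 10 genes of that chain, chosen as a list of Arabidopsis loci: the nitrate transporters NRT1.1 (AT1G12110) and NRT1.7 (AT1G69870), the nitrate reductases NIA1 (AT1G77760) and NIA2 (AT1G37130), the nitrite reductase NIR1 (AT2G15620), the plastid enzymes GLN2 (AT5G35630) and GLU1 (AT5G04140), the asparagine synthetases ASN1 (AT3G47340) and ASN2 (AT5G65010), and the asparaginase AT3G16150. Assembled transcripts (contigs) were assigned to a gene by the Arabidopsis locus given for them in the deposited annotation. In this way 9 of the 10 loci had values, in 19 contigs out of 33277 and as 9 of the 16386 loci in the whole table, while ASN1 is not analysed here. The value of a gene is the sum of its contigs in CPM, which are read counts relative to a library size scaled by the authors.

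RNA came from the youngest expanded leaf of plants of Sisymbrium orientale (Indian hedge mustard), a weed of the same family as Arabidopsis, taken when the plants had 4 leaves. No plant had been treated with 2,4-D, the auxin-like herbicide to which the lines differ in response, and all lines grew at 25 °C by day and 20 °C at night with 16 h of light and 8 h of dark. Cross A, at generation F4, gave the 2,4-D resistant lines R202, R206 and R221 (n = 3), beside S205, S207 and S242 as susceptible lines (n = 3). Cross B, at generation F3, gave RP6 and RP8 as resistant lines (n = 2), beside the susceptible SP3, SP7, SP9 and SRP1 (n = 4). Cross and generation therefore cannot be told apart. The labels name neither the parents of the crosses nor the number of plants behind a line. Each p-value rests on the spread among these 12 libraries, each from a different line. In that spread, differences between lines and technical differences cannot be told apart.

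In plants generally, nitrate is reduced to nitrite by nitrate reductase in the cytosol, and nitrite to ammonium by nitrite reductase in the chloroplast. Glutamine synthetase (GLN2 in the chloroplast) and ferredoxin-dependent glutamate synthase (GLU1) then bind ammonium, including the large amount that photorespiration releases, into glutamine and glutamate. Asparagine synthetase moves the amide nitrogen of glutamine onto aspartate, and asparaginase splits asparagine again into aspartate and ammonium.

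The libraries held 100976475 reads (R206) to 145936928 reads (RP8), and 3 reads corresponded to 0.0196 to 0.0299 CPM. Summed mesophyll markers (4 of 4 genes measured) ran from 37907 to 104082 CPM, and summed root markers (2 of 4 measured) from 14.3 to 48.1 CPM. The share of Rubisco small chain contigs in the values of a library served as a mark of leaf state. It was highest in the susceptible lines S205 (6.62%) and SP9 (5.17%), against 3.39% to 4.603% in the other 10 libraries. The share also went with phenotype. Resistant lines were at 3.39% to 3.79%, S242 at 3.49% and the other susceptible lines at 4.21% or more. Within cross B the phenotypes did not overlap in it (3.45% and 3.79% against 4.21% to 5.17%). Values adjusted for this share therefore do not separate it from phenotype. Each pair of libraries of 1 group differed beyond sampling noise, with a chi-square per contig of at least 63.9, and each library was counted once. In bulk tissue, fewer cells of a type and less RNA per cell cannot be told apart.

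Per length, the plastid enzymes led the 9 genes and the asparaginase AT3G16150 came last. For each gene the CPM of its longest contig alone was divided by the length of that contig. On this scale GLN2 had a median of 1596 CPM per kb (range 1240 to 2990 over the 12 libraries) and GLU1 of 510 CPM per kb (378 to 832). NIR1 followed with a median of 110 CPM per kb (87.0 to 199), NIA2 with 74.1 (54.1 to 113) and ASN2 with 50.3 (43.2 to 56.5). The order of these 5 genes held in 12 of 12 libraries for each pair of neighbours, although the ranges of NIR1 and NIA2 overlapped, as did those of NIA2 and ASN2. NIA1 had a median of 15.1 CPM per kb (6.62 to 26.7) and was below ASN2 in 12 of 12 libraries. The last genes were NRT1.1 at 11.8 CPM per kb (5.43 to 36.5), NRT1.7 at 4.99 (2.83 to 15.7) and asparaginase at 2.63 (0.970 to 6.41). Neighbours among these changed places: NIA1 was above NRT1.1 in 7 of 12 libraries, NRT1.1 above NRT1.7 in 11, and NRT1.7 above asparaginase in 10. The longest contig held 65.3% to 82.6% of the summed CPM of asparaginase, 83.4% to 98.4% of that of NRT1.7 and at least 98.7% of that of the other genes. With the sum of all contigs over the same length, the order of the medians was the same, asparaginase stood at 3.51 CPM per kb (1.37 to 8.33), NRT1.1 was above NRT1.7 in 10 libraries and NRT1.7 above asparaginase in 9.

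**Figure D1:**
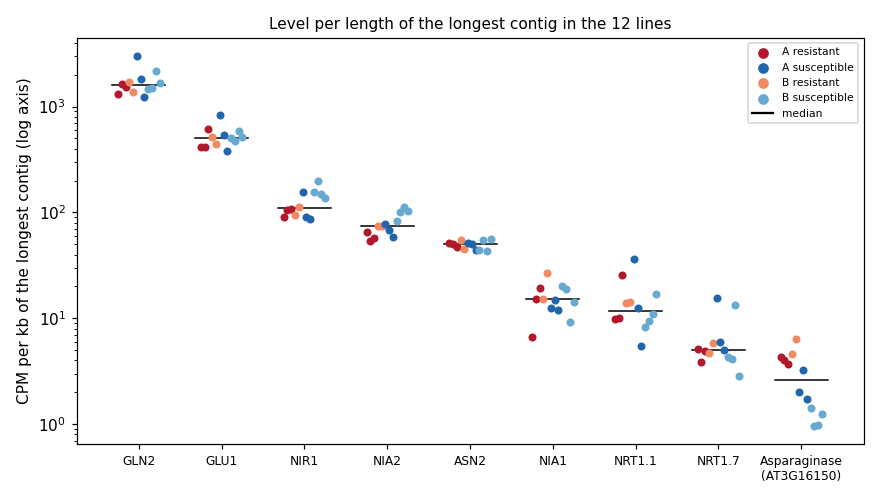
Level of each gene per length, as CPM of the longest contig per kb of its length (log axis), with 1 point per line coloured by group and a bar at the median of the 12 lines. GLN2 leads with a median of 1596 CPM per kb and asparaginase AT3G16150 comes last with 2.63, the only gene here whose resistant lines all lie above all susceptible lines.

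The genes also differed in how much they varied between lines. The locus sum of ASN2 ranged over 1.304-fold from the lowest to the highest line, with a coefficient of variation of 9.33%. The sums of NIA2, GLU1, NIR1 and GLN2 ranged over 2.096-fold, 2.19-fold, 2.28-fold and 2.41-fold. The widest ranges belonged to NRT1.1 (6.71-fold), asparaginase (6.06-fold), NRT1.7 (4.88-fold) and NIA1 (4.04-fold). S205 was the highest line for 4 of the 9 genes (GLN2, GLU1, NRT1.1 and NRT1.7), and S242, from the same group, was the lowest for 4 (GLN2, GLU1, NIR1 and NRT1.1).

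**Figure D2:**
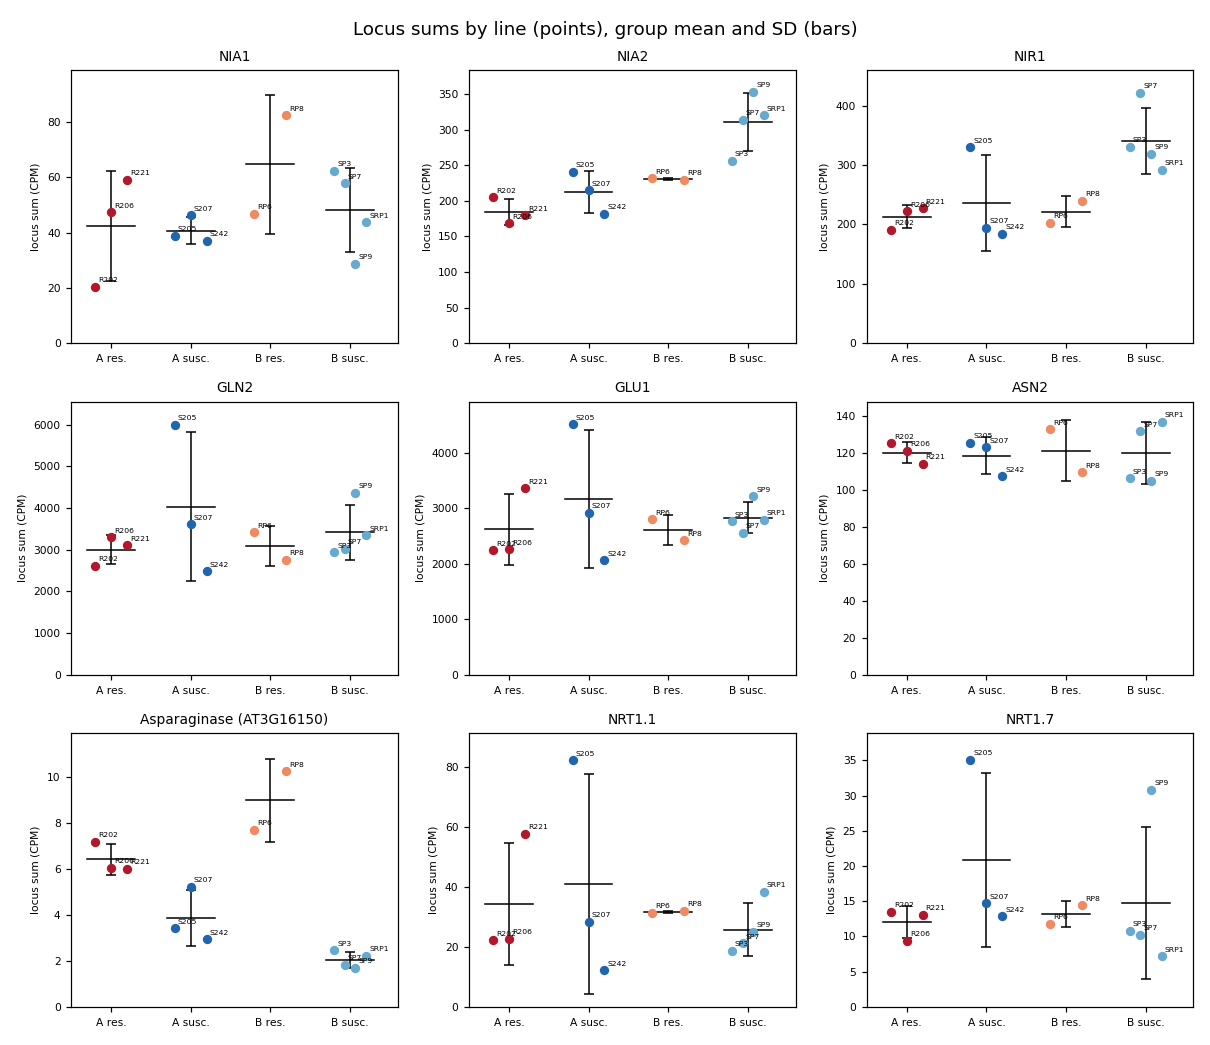
Locus sums in CPM of the 9 genes, with 1 labelled point per line, the group mean as a horizontal bar and the SD as whiskers (n = 3, 3, 2 and 4 lines from left to right). In asparaginase the resistant lines of both crosses (6.01 to 10.2 CPM) lie above the susceptible lines (1.69 to 5.22 CPM), while S205 carries the highest point in GLN2, GLU1, NRT1.1 and NRT1.7.

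Resistant lines were compared with susceptible lines first, the contrast that the labels name, over both crosses with the cross as a covariate. The test was limma on log2(CPM + 0.5) across all 16051 loci that passed a filter of 1 CPM in 5 libraries, with Benjamini-Hochberg adjustment and a threshold of 0.05. Differences below are on this log2 scale, which understates the change of low genes. All 9 genes with values passed the filter, and limma called 0 of the 9 and 0 of 16051 loci (0%). At an unadjusted p under 0.05, 2 of the 9 genes passed, 1 higher and 1 lower, against 8.22% of all loci (1320 by limma, and 1331 by edgeR, which called 0). DESeq2 called 20 loci, among them 1 of the 9 genes. Of the 9 log2 differences 4 were positive and 5 negative, with a median of -0.17 against -0.01 over all loci.

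The asparaginase AT3G16150, annotated in the deposited table as an N-terminal nucleophile aminohydrolase, was the gene that DESeq2 called. It stood at 7.16, 6.03 and 6.01 CPM in the resistant lines R202, R206 and R221 of cross A, and at 3.40, 5.22 and 2.93 CPM in the susceptible lines S205, S207 and S242. In cross B it stood at 7.70 and 10.2 CPM in the resistant lines RP6 and RP8, and at 2.46, 1.82, 1.69 and 2.21 CPM in the susceptible lines SP3, SP7, SP9 and SRP1. Every resistant line lay above every susceptible line, with S207 closest, and the same absence of overlap in this direction was found for 0.237% of all loci. Resistant lines averaged 7.42 ± 1.73 CPM (SD, n = 5) and susceptible lines 2.82 ± 1.22 CPM (SD, n = 7), and the log2 difference was 1.26 (SE 0.226, 95% interval 0.76 to 1.75). Its limma unadjusted p was 0.000142 and its adjusted p 0.587, so it did not pass over all loci, whereas DESeq2 on the recovered reads gave 1.42 with an adjusted p of 0.00187. The members were listed with the difference of this gene already known, so the separation is a description and no independent support. With the Rubisco small chain share as a covariate the difference was 1.26 (limma adjusted p = 0.321), and without S205 and SP9 together it was 1.23 (0.915). The share itself went with phenotype, so the covariate does not separate them.

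Both contigs of the asparaginase took part. The longer contig (1228 bases) stood at 4.53 to 7.88 CPM in the 5 resistant lines and 1.19 to 3.99 CPM in the 7 susceptible lines, without overlap. The shorter contig (767 bases) stood at 1.05 to 2.35 CPM in resistant and 0.483 to 1.23 CPM in susceptible lines, where R206 (1.05 CPM) lay below S207 (1.23 CPM). Their log2 differences were 1.29 (SE 0.228) and 0.80 (SE 0.18), each with a limma adjusted p of 0.619 over 31337 contigs. DESeq2 called both, with adjusted p-values of 0.00111 and 0.0187. The 2 contigs rest on 199 reads (SP9) to 1565 reads (RP8) per library, summed over both. In the authors' deposited table of 277 contigs, which lists 96 as higher and 181 as lower, the longer contig has a log2 fold change of 1.42 (p = 2.94e-05, FDR 0.0895) and the shorter one 1.14 (p = 0.000392, FDR 0.465). No other contig of the 9 genes is listed in the authors' deposited table. By its label that table compares all resistant with all susceptible lines by edgeR, with no covariate named. The limma and DESeq2 values above had the cross as a covariate, so the models differ.

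Within the crosses the asparaginase difference was 0.70 in cross A and 1.89 in cross B. In cross A the resistant lines averaged 6.40 ± 0.661 CPM (SD, n = 3) and the susceptible lines 3.85 ± 1.21 CPM (SD, n = 3; SE of the difference 0.204, 95% interval 0.24 to 1.15, limma adjusted p = 0.686). The lines of cross A did not overlap either, and nor did those of 3.36% of all loci in this direction. For this contrast limma called 0 of 16051 loci, with 829 (5.16%) at an unadjusted p under 0.05 (875 by edgeR, which also called 0, and 9 called by DESeq2). In cross B the resistant lines averaged 8.96 ± 1.79 CPM (SD, n = 2) and the susceptible lines 2.05 ± 0.354 CPM (SD, n = 4), again without overlap (as 11.4% of all loci in this direction), and the gene rose in resistant lines by the test (SE 0.216, 95% interval 1.41 to 2.37, limma adjusted p = 0.0269). It was 1 of 3 loci called higher there (0.0187% of those tested), and each processing alternative run on all 12 libraries kept the call, edgeR and DESeq2 included. The call ended without RP6 (limma adjusted p = 0.261), RP8 (0.216), SP7 (0.119), R206 (0.0852), SP3 (0.0676), SRP1 (0.0590), R221 (0.0574) or R202 (0.0503), while the difference stayed between 1.698 and 2.09 over the libraries left out. The difference between the crosses was 1.196 (SE 0.297, 95% interval 0.54 to 1.85), with an unadjusted p of 0.00219 and a limma adjusted p of 0.999. For that contrast limma called 0 loci, with 498 (3.1%) at an unadjusted p under 0.05, while edgeR called 0 (564) and DESeq2 16 (749), none of them among the 9 genes.

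**Figure D3:**
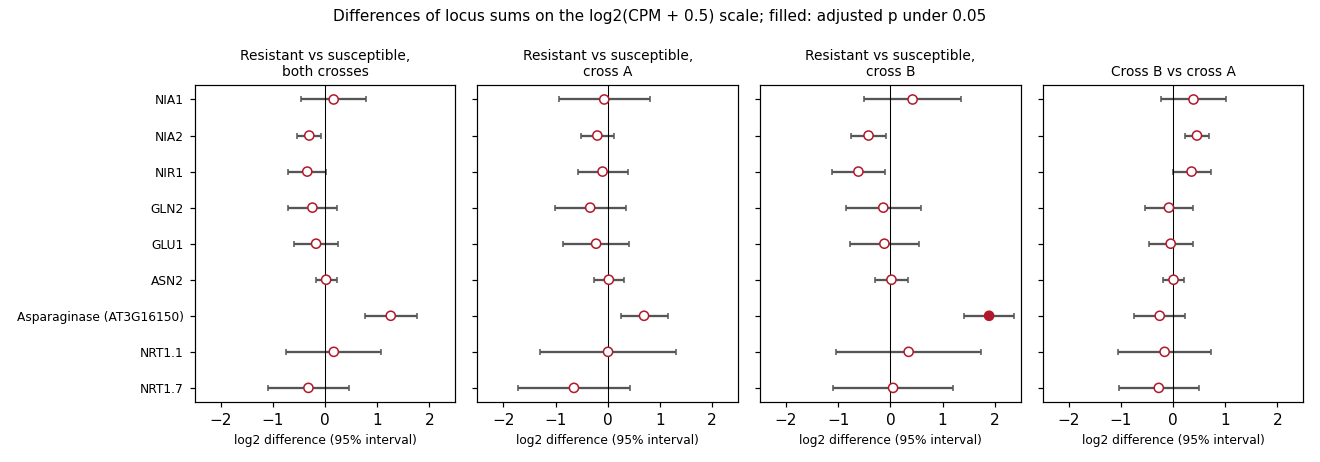
Log2 differences of the 9 locus sums on the log2(CPM + 0.5) scale with 95% intervals from limma, for resistant against susceptible lines over both crosses, within cross A and within cross B, and for cross B against cross A. The 1 filled point is asparaginase within cross B, at 1.89, and open points have an adjusted p of 0.05 or more.

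ASN2, an asparagine synthetase, varied least of the 9 genes. Its locus sum was 125, 121, 114, 133 and 109 CPM in R202, R206, R221, RP6 and RP8, and 105 to 137 CPM (median 123) in the 7 susceptible lines. The groups overlapped over nearly their whole range, and the log2 difference was 0.02 with a 95% interval of -0.18 to 0.22 (limma adjusted p = 0.941). A further asparagine synthetase, ASN3 (AT5G10240), is not one of the 9 genes and stood at 19.7 to 34.5 CPM over the 12 lines, with a log2 difference of 0.02 (95% interval -0.28 to 0.33, limma adjusted p = 0.955). The ratio of ASN2 to asparaginase CPM was 10.7 to 20.1 in the 5 resistant lines and 23.5 to 72.2 in the 7 susceptible lines. Since ASN2 hardly varied, this ratio repeats the separation of asparaginase and is no separate result. A shorter ASN2 contig (549 bases) stood at 1.31 to 1.57 CPM in resistant and 1.01 to 1.28 CPM in susceptible lines. These ranges did not overlap, as for 0.204% of all contigs in this direction, the longer asparaginase contig being the other among the 9 genes. Its log2 difference was 0.25 (SE 0.0868, limma adjusted p = 0.619), so it did not pass. Contigs of 1 gene can share reads, and each is uncertain by itself.

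**Figure D4:**
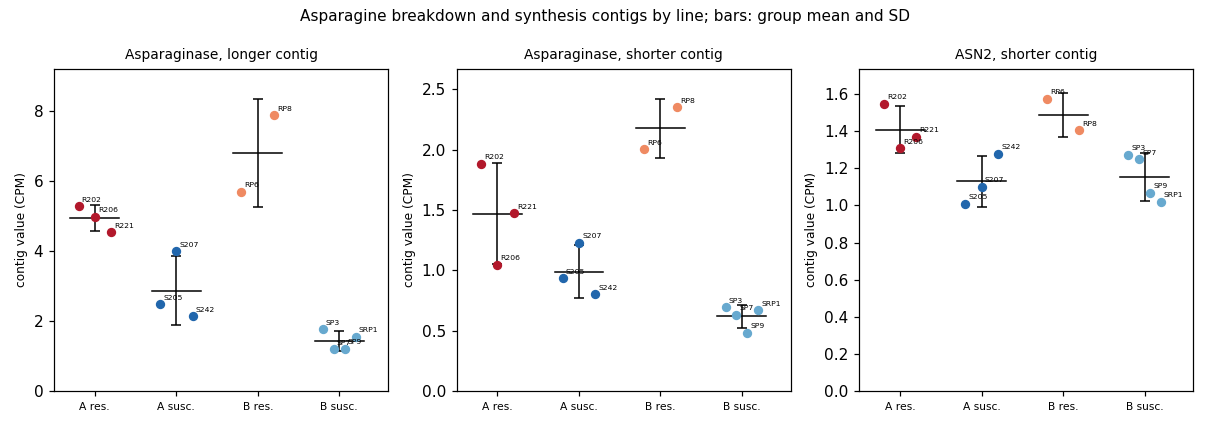
CPM of the asparaginase contigs (longer, left, and shorter, middle) and of the shorter ASN2 contig (right), with 1 labelled point per line, the group mean as a bar and the SD as whiskers. The longer asparaginase contig lies at 4.53 to 7.88 CPM in resistant and 1.19 to 3.99 CPM in susceptible lines, and the ASN2 contig at 1.31 to 1.57 and 1.01 to 1.28 CPM.

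NIA2, in Arabidopsis the nitrate reductase with most of the activity in leaves, and NIR1, which takes over its product, were both higher in the susceptible lines of cross B than in most other lines. NIA2 stood at 205.3, 169 and 180 CPM in the resistant lines of cross A and at 241, 215 and 182 CPM in its susceptible lines. In cross B it stood at 232 and 230 CPM in the resistant lines and at 257, 314, 353 and 320 CPM in the susceptible lines. Within cross A the groups overlapped (182 CPM in S242, 205.3 CPM in R202). Within cross B all resistant lines were below all susceptible lines, as for 10.5% of all loci.

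The log2 difference of NIA2 between phenotypes was -0.30 over both crosses (SE 0.104, unadjusted p = 0.0138, limma adjusted p = 0.587). It was -0.20 within cross A (limma adjusted p = 0.686) and -0.42 within cross B (unadjusted p = 0.0196, limma adjusted p = 0.975). Between the crosses NIA2 was 199 ± 27.0 CPM (SD, n = 6) in A and 284 ± 51.8 CPM (SD, n = 6) in B, a log2 difference of 0.46 with the phenotype as a covariate (SE 0.103, 95% interval 0.23 to 0.68). As a locus it did not pass (limma adjusted p = 0.0605), in a contrast where limma called 1.25% of all loci and 0 of the 9 genes. As a contig, among 31337 of which 0.826% were called higher in cross B, the same reads passed (limma adjusted p = 0.0483). The contig call ended with edgeR (0.0597), with no covariate (0.0646), with robust=TRUE in limma (0.0515) and without each library in turn except R202 (0.0524 without SP3 to 0.124 without S207). The locus passed with DESeq2 (0.00246) and with the Rubisco small chain share as a covariate (0.0242).

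NIR1 stood at 191, 222 and 227 CPM in the resistant lines of cross A and at 330, 194 and 185 CPM in its susceptible lines, where S205 was high alone. In cross B it stood at 203 and 240 CPM in the resistant lines and at 331, 421, 319 and 292 CPM in the susceptible lines. The phenotypes overlapped in cross A and did not in cross B, where the same was found in this direction for 10.5% of all loci, NIA2 included. The log2 difference was -0.34 over both crosses (SE 0.168, limma adjusted p = 0.587) and -0.61 within cross B (SE 0.23, unadjusted p = 0.0225, limma adjusted p = 0.976). It was -0.10 within cross A (limma adjusted p = 0.859), a sign that turned without S205 (0.17), with columns scaled to the same total (0.0079) and with the Rubisco small chain covariate (0.19). Cross B against A gave 0.35 (SE 0.166, limma adjusted p = 0.381). Within each library the ratio of NIR1 to NIA2 CPM, not divided by contig length, was 0.874 to 1.37. Per kb NIR1 was above NIA2 in 12 of 12 libraries.

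NIA1, the other nitrate reductase, did not follow NIA2. It stood at 20.4, 47.4, 59.2, 46.9 and 82.5 CPM in R202, R206, R221, RP6 and RP8, and at 28.8 to 62.4 CPM (median 43.7) in the susceptible lines. The resistant lines held both the lowest (R202) and the highest (RP8) value, and the ratio of NIA2 to NIA1 CPM ran from 2.79 in RP8 to 12.3 in SP9. The log2 difference between phenotypes was 0.16 (95% interval -0.46 to 0.79, limma adjusted p = 0.8289) and -0.036 without RP8, and that of cross B against A was 0.39 (95% interval -0.22 to 1.01, limma adjusted p = 0.593). NIA1 and NIA2 are close copies, and the sources used here do not give how reads matching both were counted, so their split is uncertain.

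GLN2 and GLU1 were highest in S205, the line with the highest Rubisco small chain share, and lowest in S242. GLN2 stood at 2615, 3295, 3103, 3420 and 2756 CPM in R202, R206, R221, RP6 and RP8, and at 2486 (S242) to 5993 CPM (S205) in the susceptible lines, with a median of 3348 CPM. GLU1 stood at 2249, 2265, 3362, 2802 and 2428 CPM in the same resistant lines and at 2063 (S242) to 4519 CPM (S205) in the susceptible lines, with a median of 2799 CPM. In both genes the resistant lines lay inside the range of the susceptible lines. The log2 differences were -0.24 for GLN2 (95% interval -0.71 to 0.22, limma adjusted p = 0.675) and -0.17 for GLU1 (95% interval -0.60 to 0.25, limma adjusted p = 0.739). With the Rubisco small chain share as a covariate both turned, to 0.30 and 0.28 (limma adjusted p = 0.439 and 0.543). The share comes from transcripts of the same libraries and was higher in most susceptible lines, so these values do not separate it from phenotype. The ratio of GLN2 to GLU1 CPM stayed between 0.923 (R221) and 1.45 (R206). A shorter GLN2 contig (622 bases) stood at 1.73 to 3.32 CPM, and a further annotated contig of this gene had no values in the table.

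GLU1 had 7 contigs, of which the longest (5427 bases) carried nearly all reads. A shorter contig of the assembly marked S (1013 bases) was read in all 6 lines of cross A and hardly in cross B. It held 172, 74 and 283 reads in R202, R206 and R221, and 138, 173 and 119 reads in S205, S207 and S242. In cross B, RP6, RP8 and SP7 had 0 reads, SRP1 had 1, and SP3 and SP9 had 2 each. The summed counts were 959 and 5 reads, and on the depths of the libraries the ratio of A to B was 200 (exact 95% interval 85.3 to 616, for counting error only). This contig did not pass the filter of the main test. With a filter of 1 CPM in 2 libraries limma called it between the crosses. That call is not read as a result, since this filter lets the contig in only through its values in cross A. The whole locus differed little between the crosses, with a log2 difference of -0.05 (95% interval -0.47 to 0.38).

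The 5 contigs of GLU1 from the assembly marked R, isoforms of 937 to 1281 bases, summed to 2.91 CPM (SP9) to 13.1 CPM (SP3). They were high in SP3, RP8 (12.8 CPM) and SRP1 (11.4 CPM), of both phenotypes, and at 4.59 to 9.46 CPM in cross A. Their log2 differences between phenotypes were 0.01 to 0.27 and between crosses 0.10 to 0.54, and limma called none of them. Set as a ratio over the S-assembly contigs of the same gene, the R-assembly sum gave a log2 difference between phenotypes of 0.38 for GLU1 (limma adjusted p = 0.911) and -0.64 for NRT1.7 (0.791), where 0.0467% of 4286 loci were called.

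**Figure D5:**
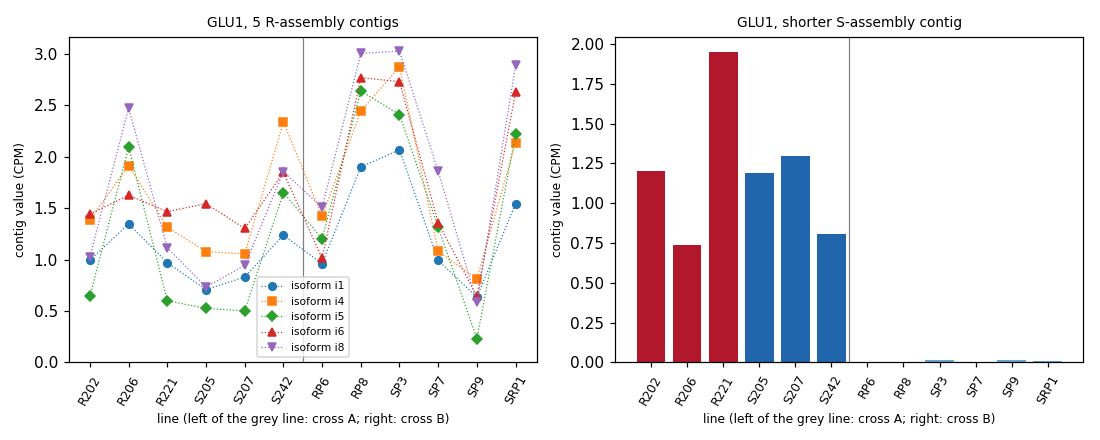
CPM by line of the 5 shorter GLU1 contigs from the R assembly (left, 1 symbol per isoform, joined by dotted lines only to guide the eye) and of the shorter contig from the S assembly (right, bars from 0), with cross A left of the grey line and cross B right of it. The R contigs are found in both crosses with the highest sum in SP3 (13.1 CPM), and the S contig has 74 to 283 reads in each line of cross A and 0 to 2 in each line of cross B.

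The nitrate transporters varied widely and gave no difference past the test. NRT1.1, in Arabidopsis a transporter that also senses nitrate, stood at 22.2, 22.8, 57.8, 31.5 and 32.02 CPM in R202, R206, R221, RP6 and RP8. The susceptible lines ran from 12.3 CPM (S242) to 82.2 CPM (S205) with a median of 24.9 CPM, so that cross A held both ends of the range. The log2 difference between phenotypes was 0.17 (95% interval -0.74 to 1.08, limma adjusted p = 0.886). It was 1.182 with the Rubisco small chain share as a covariate (limma adjusted p = 0.357), -0.12 without S242 and -0.025 without R221.

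NRT1.7, which loads nitrate into the phloem of older leaves in Arabidopsis, stood at 13.5, 9.37, 13.1, 11.8 and 14.4 CPM in the resistant lines in the same order. The susceptible lines ran from 7.20 CPM (SRP1) to 35.1 CPM (S205) with a median of 12.9 CPM, and SP9 came next to S205 with 30.8 CPM. Both high lines are those with the highest Rubisco small chain share, and the other 10 lines stood at 14.7 CPM or less. The log2 difference was -0.32 (95% interval -1.09 to 0.46, limma adjusted p = 0.733), and 0.13 without S205 and SP9 together. Its contigs differed in this: the longer one (2202 bases) stood at 34.5 CPM in S205 and 29.3 in SP9, while the shorter one (700 bases) was at its lowest in S205 (0.570 CPM).

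Phloem companion cell markers moved with the same lines. Summed over 4 of 4 genes they ran from 90.0 to 495 CPM in the susceptible lines, highest in S205 (495 CPM) and SP9 (371 CPM), and from 120 to 217 CPM in the resistant lines. Dividing cell markers (3 of 3) ran from 79.2 to 207.3 CPM in susceptible and 122 to 179 CPM in resistant lines, and guard cell markers (5 of 5) from 71.3 to 122 and 94.1 to 121 CPM. The part of these cell types in the differences above was not tested. The median log2 differences between phenotypes were -0.58 for phloem, -0.47 for mesophyll, 0.23 for guard cell and 0.50 for dividing cell markers, with 0 genes called in each list.

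The other genes of nitrogen use, taken from lists drawn up for this comparison, gave 0 limma calls between phenotypes. Over all 16051 loci, 48.5% of the log2 differences were positive, with a median of -0.01, beside which the signs below stand. Of the other nitrate and ammonium transporters, 13 of 18 were measured, 3 with a positive and 10 with a negative log2 difference (median -0.25). NRT1.2, which takes up nitrate in Arabidopsis roots, stood at 10.1 ± 1.09 CPM (SD, n = 5 resistant lines) against 12.4 ± 2.42 CPM (SD, n = 7 susceptible lines), a log2 difference of -0.25 (limma adjusted p = 0.589). Of the other glutamine, glutamate and asparagine enzymes, 12 were tested, 5 positive and 7 negative (median -0.01). Smallest in p among them was ASPGA1 (AT5G08100), the second asparaginase of Arabidopsis, with the sign opposite to AT3G16150. It stood at 24.8, 22.2, 25.2, 26.1 and 23.3 CPM in R202, R206, R221, RP6 and RP8, and at 26.2 to 32.3 CPM (median 30.1) in the susceptible lines. The groups did not overlap, by the narrow margin of 26.1 CPM in RP6 and 26.2 CPM in S242 (0.293% of all loci did not overlap in this direction), and the log2 difference of -0.25 did not pass (SE 0.0742, unadjusted p = 0.00542, limma adjusted p = 0.587). GLT1, the NADH-dependent glutamate synthase, stood at 234 ± 47.2 CPM (SD, n = 5) and 184 ± 51.5 CPM (SD, n = 7), a log2 difference of 0.41 (limma adjusted p = 0.589).

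The genes of the molybdenum cofactor, which nitrate reductase carries, and of siroheme, which nitrite reductase carries, had 2 positive and 5 negative differences (median -0.11, 7 tested). Nitrate regulators had 7 positive and 9 negative (median -0.05, 16 tested), with CBL9, a calcium sensor that acts on NRT1.1 in Arabidopsis, at 0.18 (unadjusted p = 0.0387, limma adjusted p = 0.587). Amino acid carriers had 4 positive and 2 negative (median 0.04), and dark and sugar-starvation genes 7 positive and 6 negative (median 0.06). The dark-induced gene SEN1 stood at 1.51 ± 0.497 CPM (SD, n = 5 resistant lines) against 2.64 ± 0.852 CPM (SD, n = 7 susceptible lines), a log2 difference of -0.61 (unadjusted p = 0.0137, limma adjusted p = 0.587). The photorespiratory nitrogen cycle, which feeds ammonium to GLN2, had 1 positive and 7 negative (median -0.31). One of its genes, SHM1, the serine hydroxymethyltransferase of mitochondria, ran from 1255 CPM in S242 to 4168 CPM in S205.

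Between the crosses limma also called 0 genes in these lists. Differences of cross B against A with the smallest p were 0.31 for CBL9 (limma adjusted p = 0.0878), 0.63 for the cytosolic glutamine synthetase GLN1-2 (0.150) and 0.78 for the amino acid exporter SIAR1 (0.176). GLN1-2 stood at 186 ± 37.9 CPM (SD, n = 6) in cross A and 291 ± 69.9 CPM (SD, n = 6) in cross B. The glutamate dehydrogenase GDH2 stood at 18.4 ± 4.06 and 26.5 ± 5.65 CPM (0.46, limma adjusted p = 0.214). LBD39 and LBD38, repressors of nitrate-responsive genes in Arabidopsis, had differences of 0.81 and 0.65 (0.241 and 0.299).

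Among 13429 other loci with a mean of at least 5 CPM, those whose log2 values ran closest to each gene over the 12 libraries were named by Pearson r, as a description that shares the libraries and their scaling. GLN2 ran with FNR1 (AT5G66190), the ferredoxin-NADP reductase of leaves, and with the chloroplast RNA-binding proteins AT1G09340 and AT3G63140 (r = 0.99 each). GLU1 ran with the TIR-NBS gene AT4G16990 and the aldehyde dehydrogenase AT4G34240 (r = 0.97 each). NIA2 ran closest to AT5G43140, a peroxisomal membrane protein (r = 0.95), and NIR1 to AT5G39970 (r = 0.93). For NRT1.1 it was AT2G03730 (r = 0.93), for NRT1.7 AT1G24560 (r = 0.95), for ASN2 AT1G73760 (r = 0.83) and for NIA1 AT1G32540 (r = 0.81). Every r given is among the highest of 13429 over only 12 libraries. That choice alone raises it, most of all in doubt for the lowest values, and none was tested. None is given for asparaginase, whose mean was under 5 CPM.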

How the data were processed

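Strand-specific poly(A) leaf libraries of 12 lines were sequenced, per the labels' protocols. The authors deposited a normalized signal per contig (coverage as CPM on a scaled library size), an annotation with an Arabidopsis locus per contig, and a table of their own comparison with log2 fold changes, p-values and FDR. Bowtie2, SAMtools 1.3.1, edgeR, R 3.3 and TAIR10 were used, per the submitters' processing notes, with no role given. Each column divided by its smallest step gave whole reads for 100% of values (within 0.1).

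Contig values were summed per locus and tested with limma 3.58.1 (R 4.3.3) on log2(CPM + 0.5) with a mean-variance trend, over all loci or contigs with 1 CPM in 5 libraries. Phenotypes were tested with cross as covariate, crosses with phenotype as covariate, and within-cross contrasts with 1 mean per group. CPM had been assumed when the design was written, and its test was kept for the scaled values. Alternatives were edgeR 4.0.16 (quasi-likelihood, TMM) and DESeq2 1.42.0 on whole reads, other pseudocounts (0.1 or 2), a looser filter (1 CPM in 2 libraries) or none, other scalings, robust=TRUE, no covariate, a Rubisco small chain covariate, the highest contig of each locus, and each library left out. Leaving out S205 and SP9 together was added after seeing the data. The steps were tested on simulated data.

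The members and all gene lists were chosen with earlier results of these data known. Beside the 10 loci, the text names up to 3 loci per gene with the highest r, and per list up to 3 loci by smallest p for phenotype and for cross. No sequence is shown.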

Additional observations from a re-analysis of the deposited data

Results flagged for a closer look

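Of 27 groups of lines examined (the 9 genes, each in the resistant lines, the susceptible lines and the susceptible lines of cross B), 3 had 1 line far from the rest, by the gap to its nearest neighbour as a share of the group's range. Chance flags about 1 in 20 groups.

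NRT1.1 stood at 57.81 CPM in R221, against at most 32.02 CPM in the other resistant lines. Among the susceptible lines NRT1.1 stood at 82.24 CPM in S205, against at most 38.5 CPM in the others. NRT1.7 stood at 30.82 CPM in SP9, against at most 10.8 CPM in the other susceptible lines of cross B. S205 and SP9 are also the lines with the highest Rubisco small chain share (6.62% and 5.17%) and phloem marker sum (495 and 371 CPM), while R221 had 3.57% and 217 CPM. The part of leaf state in these values was not tested.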

How the results depend on the processing

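Over all alternatives, 161 counts of called genes kept their value within 1.5 times and 29 moved, and of the single-gene values 533 kept their direction and side of the threshold, 5 newly passed, 23 no longer passed and 19 turned their sign. Of the 9 genes, DESeq2 called 1 locus and 2 contigs (both asparaginase) between phenotypes and 1 locus (NIA2) between crosses, where limma called 1 locus with the Rubisco small chain covariate. Between crosses, the contig count was 2 with no filter and 2 with 1 CPM in 2 libraries. The added one is the shorter GLU1 contig, which only its cross A values let in under the latter, so its call is not read as a result. The contig count between crosses was 0 with robust=TRUE, edgeR, no covariate or without S205 and SP9 together. Leaving out 1 library gave 0 to 1 there, and 0 to 1 for loci within cross B. Over all loci, limma and DESeq2 called 200 and 772 between crosses (contigs 682 and 1742), 0 and 20 between phenotypes (contigs 0 and 84), 0 and 9 within cross A, 4 and 66 within cross B, and 0 and 16 for the difference between crosses. Over the other alternatives, the locus counts ran from 54 to 535 between crosses (contigs 246 to 1278), 0 to 1 between phenotypes (contigs 0 to 4), 0 to 6 within cross A, 0 to 23 within cross B and 0 to 7 for the difference between crosses. The Rubisco small chain covariate turned the phenotype difference of NRT1.7 to 0.40, of GLU1 to 0.28 and of GLN2 to 0.30. It turned that of NIR1 within cross A to 0.19, and the assembly ratio of GLU1 to -0.56 and of NRT1.7 to 0.56. This covariate went with phenotype, so these turns do not separate phenotype from leaf state. Scaling each column to the same total, which shifts the median of all loci by 0.10 within cross A, took NIR1 there to 0.0079. Without S205 and SP9 together, NRT1.7 was 0.13, GLU1 0.0088, NIR1 within cross A 0.17 and the GLU1 assembly ratio -0.077. Without 1 library, phenotype differences ran from -0.12 to 0.52 for NRT1.1, -0.036 to 0.41 for NIA1, -0.028 to 0.068 for ASN2, and within cross A from -0.25 to 0.17 for NIR1. The cause was not tested. The asparaginase AT3G16150 was higher in resistant lines under all 25 alternatives over both crosses (0.96 to 1.43) and all 24 within each cross. These counts do not cover the second asparaginase, ASPGA1, which had the opposite sign between phenotypes in the main test. No paired analysis was possible because the line codes give no replicate numbers shared between groups.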

Other observations

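Of the 9 genes, 2 (22.2%) had phenotype differences of opposite sign in the crosses, against 38.9% of all 16051 loci. Of the 54 tested loci in the lists of other transporters, enzymes, cofactor genes, regulators and amino acid carriers, 29 (53.7%) had them. The lists ran from 2 of 7 cofactor genes (28.6%) to 5 of 6 amino acid carriers (83.3%). With an unadjusted limma p under 0.05 for the difference between the crosses as well, there were 0 of the 9 genes and 4 of the 54 loci (7.41%, against 2.77% of all loci). These were LBD39, LBD37, SIAR1 and NRT1.8, a selection made after their values were seen, and none of them passed after adjustment. LBD39, a repressor of nitrate-responsive genes in Arabidopsis, stood at 3.49, 2.44 and 2.47 CPM in the resistant and 1.46, 1.68 and 2.14 CPM in the susceptible lines of cross A. In cross B it stood at 2.63 and 2.16 CPM in the resistant lines and 4.998, 8.72, 4.77 and 5.71 CPM in the susceptible lines. The groups did not overlap in either cross, in opposite directions (as 3.36% of all loci in that direction in A and 10.5% in B), with log2 differences of 0.54 in A (limma adjusted p = 0.686) and -1.15 in B (0.408). The difference between the crosses was -1.69 (SE 0.328, unadjusted p = 0.000372, limma adjusted p = 0.996), so it did not pass over all loci.

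LBD37, of the same family, had log2 differences of 0.39 in cross A and -0.74 in cross B, and a difference between them of -1.14 (unadjusted p = 0.0114, limma adjusted p = 0.999). NRT1.8, a nitrate transporter, was at 1.0555 in A and -0.957 in B, with a difference between them of -2.01 (unadjusted p = 0.0194, limma adjusted p = 0.999). SIAR1, an amino acid exporter, was at 0.98 in A and -0.28 in B, with a difference between them of -1.26 (unadjusted p = 0.00448, limma adjusted p = 0.999).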
